A study of Mus musculus with 22 samples.

Results

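The endothelial genes Sox17, Flt1, Kdr, Pecam1, Cdh5, Tek, Tie1, Vwf, Emcn and Cldn5 were followed in white fat of mice on a high-fat diet whose bone marrow had been replaced by a graft. They were taken as the features of the deposited expression table whose platform annotation carries one of these symbols. All 10 had 1 feature each, and they were 10 of 19337 genes with a single symbol. The filter on low values left out the 25% of genes with the lowest mean and kept 14502 genes in each fit. All 10 passed it, Sox17 in inguinal fat only through the arrays with Gipr-/- marrow, as given below.

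Endothelial cells line blood and lymph vessels, join one another through vascular cadherin and claudins, and receive growth signals through VEGF and angiopoietin receptors. In fat they deliver fatty acids to adipocytes, and the vessel bed is remodelled as a depot expands. ETS factors, together with SOX factors of the Sox17 group, maintain much of the endothelial programme. Marrow transplantation replaces blood cells, while the vessels of the fat remain for the most part tissue of the recipient.

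The mice were male C57BL/6J bone marrow chimeras, sampled after 6 weeks of marrow reconstitution and a further 14 weeks on a diet with 60% of calories from fat, which every group received. The marrow was Gipr-/-S100a9-/-, Gipr-/- or wild type (WT). Gipr encodes the receptor of the gut hormone GIP, and S100a9 encodes an alarmin subunit of neutrophils and monocytes. Per the labels' protocols the recipients of Gipr-/- and of WT marrow were WT; the recipient of Gipr-/-S100a9-/- marrow is not stated in the labels. Inguinal subcutaneous fat (ingWAT) had 3 arrays with Gipr-/-S100a9-/-, 3 with Gipr-/- and 4 with WT marrow. Epididymal fat (epiWAT) had 4 arrays with each kind of marrow. In whole fat, fewer endothelial cells and less endothelial RNA per cell cannot be told apart.

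Values are read as log2, so a difference of 1 is a doubling on the linear scale. Array medians over all features of the deposited table lay between 6.11 and 6.54 on that scale. The adipocyte list, of which 14 of 15 genes had a value, averaged 14.96 to 17.02 in the 22 arrays. In ingWAT, the mean of the B cell and lymph node list (6 of 9 genes) was 11.46 and 11.49 in replicates 1 and 3 with Gipr-/-S100a9-/- marrow, 5.85 in replicate 2, 5.43 to 5.78 with Gipr-/- marrow and 5.32 to 6.37 with WT marrow. The skeletal muscle list (10 of 10 genes) ranged from 6.98 to 13.81 in ingWAT with Gipr-/-S100a9-/- marrow, from 7.17 to 10.58 with Gipr-/- marrow and from 5.76 to 16.36 with WT marrow. In epiWAT it stayed between 4.94 and 5.71, while epididymis and testis genes were present in some arrays, as given below. The macrophage list (11 of 12 genes) averaged 9.03 to 9.56 in ingWAT with Gipr-/-S100a9-/- marrow, 10.11 to 10.32 with Gipr-/- marrow and 9.28 to 10.56 with WT marrow. In epiWAT it averaged 9.19 to 10.86, 10.91 to 12.02 and 9.95 to 11.45 with the same kinds of marrow. Group means of the targeted genes lay between 4.78 and 5.41 for Gipr and between 5.18 and 6.16 for S100a9. All were under 6.33, the median of gene means. With Gipr-/-S100a9-/-, Gipr-/- and WT marrow S100a9 averaged 5.82, 6.16 and 5.65 in ingWAT, and 5.18, 5.18 and 5.37 in epiWAT. These low values do not check the labels, and the part of recipient cells in them was not tested.

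In inguinal fat, Sox17 and Flt1 had the widest differences between kinds of marrow among the 10 genes. Sox17, an endothelial transcription factor with a part in arterial identity, was lower with Gipr-/-S100a9-/- than with Gipr-/- marrow by a log2 difference of -2.06. Its adjusted p in limma was 0.0464 with the filter on low values and 0.0528 without it, on either side of the threshold of 0.05. None of the other 9 genes passed in that comparison. Sox17 is left out of the next 2 counts, because it passed the filter only through its high group. The other 9 genes all lay below their Gipr-/- means with Gipr-/-S100a9-/- marrow, in a comparison where 47.9% of all genes were higher. The same 9 all lay above their WT means with Gipr-/- marrow, where 52.8% of all genes were higher. None of the 10 genes passed the threshold between Gipr-/- and WT marrow. Both comparisons use the same 3 Gipr-/- arrays, so they are not independent of each other. The 10 genes also varied together within groups, as given below, so they are not 10 separate observations. The plot of values by array shows where each array lies.

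**Figure D1:**
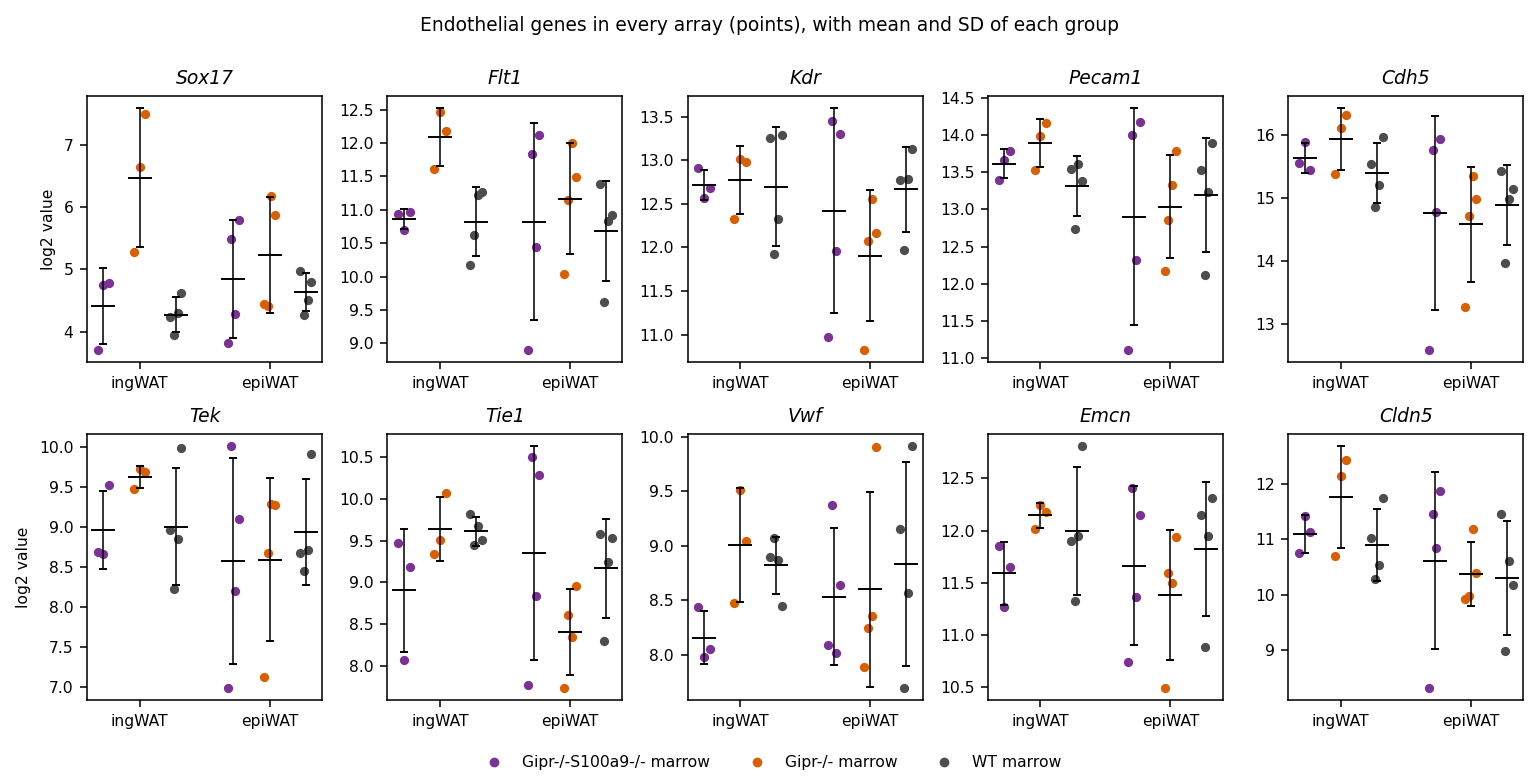
Log2 values of the 10 endothelial genes in all 22 arrays, 1 panel per gene with its own axis range; points are arrays, horizontal bars are group means and whiskers are SDs. In ingWAT the 3 arrays with Gipr-/- marrow lie above all others for Sox17 and Flt1, and in epiWAT every kind of marrow spreads widely.

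Sox17 (chr1:4490928-4497426 in RefSeq for GRCm38.p6, the build of all spans given here) had log2 values of 3.70, 4.75 and 4.78 in inguinal fat with Gipr-/-S100a9-/- marrow, 5.28, 6.64 and 7.49 with Gipr-/- marrow, against 4.23, 3.95, 4.29 and 4.63 with WT marrow. The 3 Gipr-/- arrays were above all 7 others. Its level averaged 4.41 ± 0.61 with Gipr-/-S100a9-/- marrow (SD, n = 3), 6.47 ± 1.12 with Gipr-/- marrow (SD, n = 3) and 4.27 ± 0.28 with WT marrow (SD, n = 4). The difference between Gipr-/-S100a9-/- and Gipr-/- marrow was -2.06 (SE 0.50, 95% interval -3.16 to -0.97, limma adjusted p = 0.0464). The difference between Gipr-/- and WT marrow was of like size, at 2.20 (SE 0.47, interval 1.17 to 3.22), with an unadjusted p of 0.000554 and an adjusted p of 0.0620 in limma. Between Gipr-/-S100a9-/- and WT marrow it was 0.14 (SE 0.47, interval -0.89 to 1.16). Sox17 was the lowest of the 10 genes. Its mean over the 7 inguinal arrays with Gipr-/-S100a9-/- or WT marrow was 4.33, under the filter level of 4.42, so it entered the test only through the group where it was high. Without the filter the adjusted p was 0.0528 between Gipr-/-S100a9-/- and Gipr-/- marrow and 0.0711 between Gipr-/- and WT marrow in limma.

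The call of Sox17 rested on few arrays. It was lost, with adjusted p between 0.0544 and 0.189 in limma, when any one of 8 of the 10 inguinal arrays was left out: each of the 4 with WT marrow, replicates 2 and 3 with Gipr-/- marrow and replicates 1 and 3 with Gipr-/-S100a9-/- marrow. The difference itself stayed between -2.66 and -1.55. Replicates 1 and 3 with Gipr-/-S100a9-/- marrow are those with high lymph node genes. Without both, the difference was -1.72 (limma adjusted p = 0.300), against the 1 array left in that group.

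Flt1 encodes VEGF receptor 1, which binds VEGF-A tightly, signals weakly and is often described as a decoy. In inguinal fat its log2 values were 10.93, 10.69 and 10.97 with Gipr-/-S100a9-/- marrow, 11.61, 12.47 and 12.18 with Gipr-/- marrow, against 10.18, 10.62, 11.23 and 11.27 with WT marrow. The 3 Gipr-/- arrays again lay above all 7 others. The difference was -1.22 (SE 0.33, interval -1.93 to -0.51, limma adjusted p = 0.0642) between Gipr-/-S100a9-/- and Gipr-/- marrow. Between Gipr-/- and WT marrow it was 1.26 (SE 0.31, interval 0.60 to 1.93, limma adjusted p = 0.0847). Neither passed the threshold. Kdr (chr5:75932827-75979072), VEGF receptor 2 and the main signalling receptor for VEGF-A, averaged 12.72 ± 0.17, 12.78 ± 0.39 and 12.70 ± 0.68 in inguinal fat with Gipr-/-S100a9-/-, Gipr-/- and WT marrow (SD, n = 3, 3 and 4). Its differences were -0.06 (interval -0.85 to 0.73) between Gipr-/-S100a9-/- and Gipr-/- marrow and 0.08 (interval -0.66 to 0.82) between Gipr-/- and WT marrow.

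Promoter windows were available for 6 of the 10 genes (Emcn, Tek, Tie1, Kdr, Flt1 and Cldn5) in RefSeq for GRCm38.p6, and 3 stretches are shown because the 10 genes varied together across arrays, as given below, while their upstream sequences differ in the short motifs of endothelial factors. Flt1 lies on chromosome 5 (chr5:147561604-147726438), and its window starts from position 147726011, the start used by the RefSeq promoter table, which lies 427 bases inside that span. The stretch from 53 to 26 bases before that start (chr5:147726037-147726064, minus strand) holds an ETS core match and a TATA box match, both in capitals. The windows of Tie1 and Cldn5 are the 250 bases before the start (chr4:118489850-118490099, minus strand, and chr16:18776597-18776846, plus strand). Tie1 itself spans chr4:118471191-118489849 and Cldn5 spans chr16:18776847-18778262. Capitals there mark matches to CGGAAG or AGGAAG on either strand, and the window of Cldn5 has none.
Flt1: AGGAAGtgggctggggaaaggtTATAAA
Tie1: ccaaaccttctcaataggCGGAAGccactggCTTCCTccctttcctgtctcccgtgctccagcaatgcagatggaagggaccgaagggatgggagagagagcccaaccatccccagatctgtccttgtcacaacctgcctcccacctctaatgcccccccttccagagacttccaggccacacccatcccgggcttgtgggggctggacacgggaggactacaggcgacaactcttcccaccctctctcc
Cldn5: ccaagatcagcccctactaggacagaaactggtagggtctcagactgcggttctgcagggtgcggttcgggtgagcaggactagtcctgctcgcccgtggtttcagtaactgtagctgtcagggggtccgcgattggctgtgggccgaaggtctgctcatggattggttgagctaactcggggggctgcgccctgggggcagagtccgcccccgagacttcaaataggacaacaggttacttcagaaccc

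Either ETS core, searched as CGGAAG and AGGAAG on both strands, was found in 3 of the 6 upstream windows (Emcn, Tie1 and Flt1), against 39.21% of the upstream windows of all 32851 promoters. TATAAA was found upstream of Flt1 alone of the 6 (12.37% of all). The SOX motif AACAAT was present in the windows of Emcn and Tek (9.42% of all) and ACAATG in none of the 6 (10.69% of all). The KLF motif GGGTGTG was present in Tie1 (6.93% of all), and neither the FOX motif GTAAACA (3.17% of all) nor the GATA motif AGATAA (9.99% of all) was present in any of the 6. These are matches of letters in windows of 250 bases and say nothing of binding.

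Tek (chr4:94739086-94874976) and Tie1, on the same chromosome, encode the angiopoietin receptor TIE2 and its partner TIE1. Tek had log2 values of 8.69, 8.67 and 9.53 in inguinal fat with Gipr-/-S100a9-/- marrow, 9.47, 9.73 and 9.69 with Gipr-/- marrow, against 8.97, 8.23, 8.86 and 9.99 with WT marrow. Its groups overlapped, and its differences were -0.67 (SE 0.41, limma adjusted p = 0.427) between Gipr-/-S100a9-/- and Gipr-/- marrow and 0.62 (SE 0.38, limma adjusted p = 0.483) between Gipr-/- and WT marrow. Tie1 had values of 9.47, 8.07 and 9.19 with Gipr-/-S100a9-/- marrow, 9.34, 9.51 and 10.07 with Gipr-/- marrow, against 9.82, 9.44, 9.68 and 9.50 with WT marrow. Replicate 2 with Gipr-/-S100a9-/- marrow was the lowest of the 10 arrays. The difference of Tie1 was -0.73 (SE 0.36, limma adjusted p = 0.297) between Gipr-/-S100a9-/- and Gipr-/- marrow and 0.03 (SE 0.33) between Gipr-/- and WT marrow.

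No junction or surface gene passed the threshold between kinds of marrow in inguinal fat. Cdh5 (chr8:104101613-104144504), the vascular cadherin of adherens junctions, averaged 15.63 ± 0.24, 15.93 ± 0.49 and 15.39 ± 0.47 in inguinal fat with Gipr-/-S100a9-/-, Gipr-/- and WT marrow (SD, n = 3, 3 and 4). Cldn5, the main claudin of endothelial tight junctions, averaged 11.10 ± 0.34, 11.77 ± 0.93 and 10.90 ± 0.65 in the same order, and its difference of 0.86 (SE 0.44, interval -0.09 to 1.82) between Gipr-/- and WT marrow was the next in size after Flt1. Pecam1 (chr11:106654213-106715281), an adhesion molecule of endothelial contacts that platelets and leukocytes also carry, differed by 0.57 (SE 0.26, unadjusted p = 0.0443, adjusted p = 0.318 in limma) between Gipr-/- and WT marrow. Emcn (chr3:137341062-137431069), a sialomucin of capillary and venous endothelium, had values of 11.86, 11.27 and 11.65 with Gipr-/-S100a9-/- marrow and 12.01, 12.25 and 12.18 with Gipr-/- marrow, groups that did not overlap. Its difference was -0.56 (SE 0.33, limma adjusted p = 0.415).

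Vwf (chr6:125552948-125686679) encodes von Willebrand factor, which endothelial cells and megakaryocytes store and secrete and which binds platelets. In inguinal fat its log2 values were 8.44, 7.98 and 8.05 with Gipr-/-S100a9-/- marrow, 8.47, 9.52 and 9.05 with Gipr-/- marrow, against 8.90, 9.07, 8.87 and 8.45 with WT marrow. The 3 arrays with Gipr-/-S100a9-/- marrow were the lowest, by a margin under 0.05 log2 units at the nearest. The difference was -0.85 (SE 0.31, unadjusted p = 0.0185, adjusted p = 0.156 in limma) against Gipr-/- marrow and -0.66 (SE 0.29, adjusted p = 0.350 in limma) against WT marrow. The platelet list (6 of 9 genes with a value), relevant because platelets come from the marrow, averaged 5.63 to 5.77 with Gipr-/-S100a9-/- marrow, 5.59 to 6.10 with Gipr-/- marrow and 5.56 to 6.93 with WT marrow. Its part in the values of Vwf was not tested.

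The inguinal counts that follow leave out Sox17, because it passed the filter only through its high group. Of the other 9 genes, 0 were called lower between Gipr-/-S100a9-/- and Gipr-/- marrow at an adjusted p under 0.05 in limma, where 2.65% of all 14502 genes were. At an unadjusted p under 0.05, 2 were lower (Flt1 and Vwf), against 11.9% of all genes. In 3 (those and Emcn) the groups did not overlap, against 13.9% of all genes. The median difference of the 9 was -0.66, beside -0.03 over all genes. Between Gipr-/- and WT marrow, 0 of the 9 passed, with 0.207% of all genes called higher, 2 were higher at an unadjusted p under 0.05 (Flt1 and Pecam1) against 9.94%, and 1 did not overlap (Flt1) against 10.2%. The median of the 9 was 0.54, beside 0.03 over all genes, of which 52.8% were higher. Between Gipr-/-S100a9-/- and WT marrow, 0 of the 9 passed (0% of all genes), 1 had an unadjusted p under 0.05 (Vwf, 13.5% of all), 1 did not overlap (11% of all), and 5 were higher and 4 lower.

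The skeletal muscle list varied widely among inguinal arrays, and its ranges overlapped between kinds of marrow, as given above. An alternative chosen after seeing the data took its mean as a covariate. The median of all 10 genes, Sox17 included, was then 0.39 between Gipr-/- and WT marrow, against 0.56 without the covariate. Sox17 differed by 2.18 (limma adjusted p = 0.137) and Flt1 by 1.15 (limma adjusted p = 0.197). In the same fit Sox17 differed by -2.06 between Gipr-/-S100a9-/- and Gipr-/- marrow (limma adjusted p = 0.0529), above the threshold of 0.05. The macrophage list, given above, did not overlap between Gipr-/-S100a9-/- and Gipr-/- marrow in inguinal fat. There 2 of its 11 genes were called lower, against 2.65% of all genes. These were Mrc1, the mannose receptor (-1.68, limma adjusted p = 0.0128), and Mertk, a receptor for apoptotic cells (-1.76, adjusted p = 0.0249). Replicates 1 and 3 with Gipr-/-S100a9-/- marrow, the arrays with high lymph node genes, enter these 2 calls as well. The part of the macrophage list in the endothelial values was not tested.

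**Figure D2:**
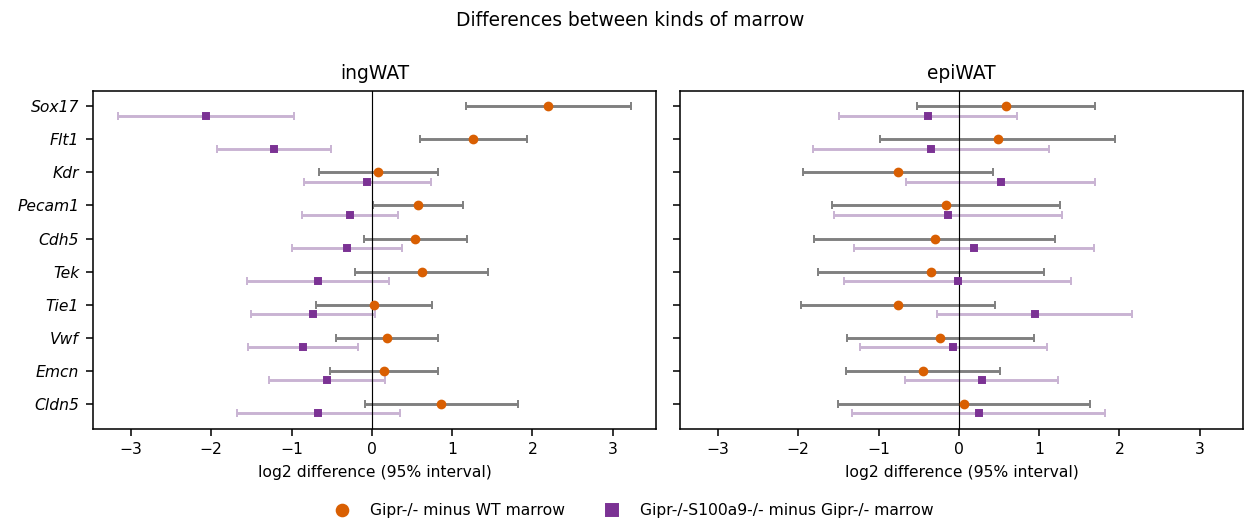
Differences between kinds of marrow for each endothelial gene, ingWAT left and epiWAT right, on a log2 axis; circles are Gipr-/- minus WT marrow, squares are Gipr-/-S100a9-/- minus Gipr-/- marrow, and lines are 95% intervals. In ingWAT all circles lie right of 0 and all squares left of it, with Sox17 at 2.20 and -2.06, while in epiWAT every interval crosses 0.

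In epididymal fat no difference of the 10 genes between kinds of marrow passed the threshold. The difference between Gipr-/- and WT marrow ranged from -0.76 (Kdr and Tie1, limma adjusted p = 0.823 and 0.835) to 0.59 (Sox17, SE 0.51), with 3 genes higher and 7 lower and a median of -0.27, which became 0.64 with the adipocyte mean as a covariate. Between Gipr-/-S100a9-/- and Gipr-/- marrow it ranged from -0.38 (Sox17) to 0.94 (Tie1, SE 0.55, limma adjusted p = 0.563), with 5 higher and 5 lower. Between Gipr-/-S100a9-/- and WT marrow it ranged from -0.36 (Tek) to 0.31 (Cldn5), with every adjusted p at 0.999 in limma. The number called was 0 in each comparison, as it was for all genes (0%). The number at an unadjusted p under 0.05 was also 0, against 7.25% of all genes between Gipr-/- and WT marrow, 10.7% between Gipr-/-S100a9-/- and Gipr-/- marrow and 3.06% between Gipr-/-S100a9-/- and WT marrow. No gene had groups that did not overlap, against 5.04%, 6.05% and 2.32% of all genes in the same comparisons.

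In these genes the arrays of one group spread more widely in epididymal than in inguinal fat. The within-group SD of the 10 genes had a median of 0.946 in epiWAT, from 0.678 (Emcn) to 1.15 (Cldn5), beside 0.446 over all genes tested. In ingWAT that median was 0.447, from 0.334 (Pecam1) to 0.706 (Sox17), beside 0.425. Cdh5 shows the pattern: its log2 values were 12.59, 15.75, 14.77 and 15.94 in epiWAT with Gipr-/-S100a9-/- marrow, 13.28, 14.71, 15.35 and 14.98 with Gipr-/- marrow, against 15.43, 13.98, 14.98 and 15.14 with WT marrow. Replicate 1 with Gipr-/-S100a9-/- marrow, replicate 1 with Gipr-/- marrow and replicate 2 with WT marrow were the lowest of their groups, and the same 3 arrays had the lowest means over the 10 genes (8.93, 9.39 and 9.63).

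Each of those 3 arrays had the lowest adipocyte mean and the highest epididymis and testis means of its group. The adipocyte list averaged 14.96, 15.59 and 16.09 in them, in that order, and 15.86 to 16.98 in the other 9 epididymal arrays. The epididymis epithelium list (11 of 13 genes with a value) averaged 11.43, 7.24 and 9.18 in them, and 4.98 to 8.18 in the others. The testis germ cell list (10 of 10 genes) averaged 7.40, 12.81 and 8.66 in them and 3.95 to 7.32 in the others. In ingWAT the epididymis list stayed between 4.24 and 5.41. With the adipocyte mean as a covariate, Flt1 was higher with Gipr-/- than with WT marrow in epididymal fat by 1.52 (limma adjusted p = 0.0135). It was the only one of the 10 called in that fit, which called 350 of all genes, against 0 without the covariate. Kdr, Tie1 and Emcn moved to differences of 0.05, 0.03 and 0.14. The adipocyte mean itself averaged 16.04 with Gipr-/- and 16.63 with WT marrow, so covariate and marrow cannot be fully told apart.

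**Figure D3:**
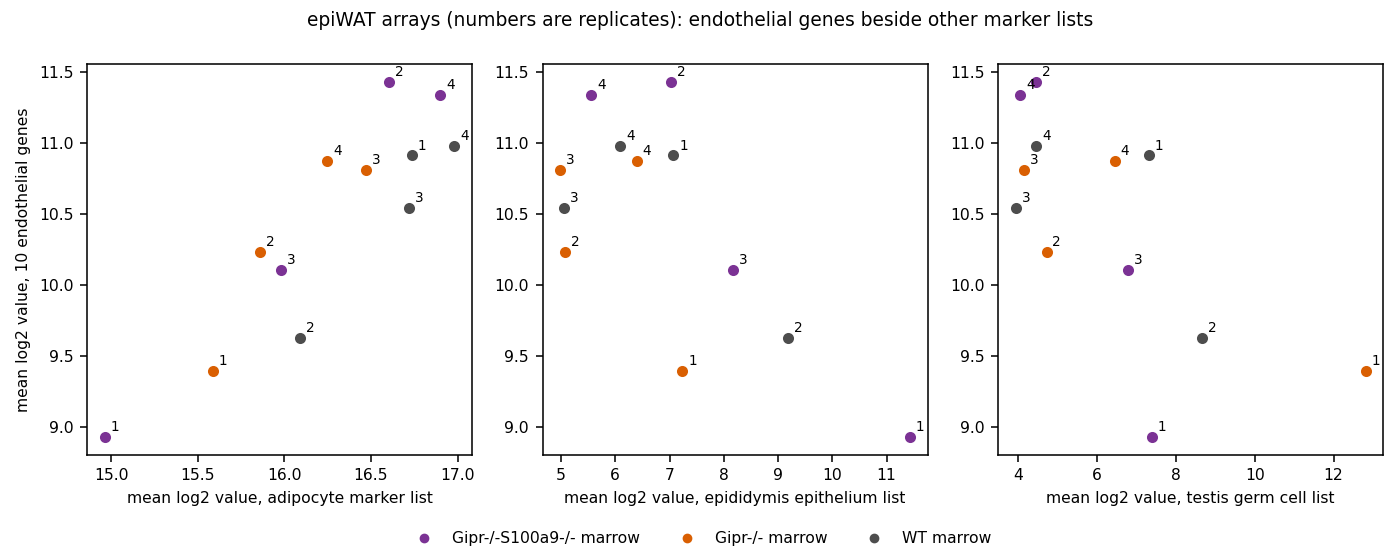
Each point is 1 of the 12 epiWAT arrays, numbered by replicate and coloured by marrow; the vertical axis is the mean log2 value of the 10 endothelial genes, and the horizontal axes are the mean log2 values of the adipocyte, epididymis epithelium and testis germ cell lists. The arrays with endothelial means of 8.93, 9.39 and 9.63 have the lowest adipocyte mean of their groups and lie at 11.43, 7.24 and 9.18 on the epididymis list.

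Within groups the 10 genes varied together. After the mean of each of the 6 groups was subtracted, the 45 pairs of genes had a median Pearson r of 0.791 over the 22 arrays, from 0.372 to 0.927. In the 12 epididymal arrays the median was 0.860 and all 45 pairs were above 0. In the 10 inguinal arrays it was 0.409 and 43 were above 0. These correlations are descriptions, since all genes of an array share its RNA sample, tissue make-up and normalization. Against the mean of the other 9 genes, r was highest for Pecam1 (0.955), Cdh5 (0.939), Kdr (0.924) and Flt1 (0.917), and it was 0.885 for Emcn, 0.858 for Tek, 0.851 for Tie1, 0.820 for Cldn5, 0.752 for Sox17 and 0.608 for Vwf. Vwf stood apart in ingWAT, where its r was 0.05, and Tie1 had 0.27 there.

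The genes most like the mean of the 10, over the 22 arrays after the same subtraction, were Ptprb, the phosphatase that acts on TIE2 (r = 0.964), Agmo (0.958), Pdgfb, the endothelial ligand that recruits pericytes (0.958), Erg, an endothelial ETS factor (0.951), and Adgrf5 (0.949). Cyp4b1 (0.947), Mfsd8 (0.942), Vsig2 (0.939), Sh3bp5 (0.938) and Ablim3 (0.938) followed. Without the 2 arrays farthest from the median, replicates 1 with Gipr-/-S100a9-/- and with Gipr-/- marrow in epiWAT, r lay between 0.892 and 0.936 for these 10. Gene by gene, the most like of the other 9 was Cdh5 for Flt1 (0.922), Kdr (0.927), Pecam1 (0.905) and Cldn5 (0.909), Kdr for Cdh5 (0.927), Tek (0.887) and Emcn (0.885), Pecam1 for Tie1 (0.877) and Vwf (0.683), and Cldn5 for Sox17 (0.779). Outside the 10 genes the most like was Pik3r6 for Sox17 (0.854), Sh3bp5 for Flt1 (0.944), Adgrf5 for Kdr (0.953) and Tek (0.929), Mmrn2 for Pecam1 (0.946) and Itga6 for Cdh5 (0.953). It was Aqp7 for Tie1 (0.934), Fam20a for Vwf (0.873), Eng for Emcn (0.951) and Plod1 for Cldn5 (0.933).

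Between the depots, all 10 genes had a higher mean in ingWAT than in epiWAT when the 3 kinds of marrow were weighted equally, with a median difference of 0.41 beside -0.02 over all genes, of which 48.3% were higher. None passed the threshold, where 5.4% of all genes were called higher in ingWAT and 7.55% lower. At an unadjusted p under 0.05, 2 of the 10 were higher, against 13.7% of all genes, and 0 were lower, against 16.8%. Those 2 were Cdh5, with means of 15.65 in ingWAT and 14.74 in epiWAT and a difference of 0.91 (SE 0.34, interval 0.19 to 1.63, limma adjusted p = 0.0848), and Cldn5, with a difference of 0.83 (SE 0.38, limma adjusted p = 0.153). The others ranged from 0.01 (Vwf) to 0.56 (Pecam1). Without the 4 epididymal arrays whose epididymis or testis list averaged above 8, an alternative chosen after seeing the data, the median difference was -0.11 and 8 of the 10 were negative, all but Cdh5 and Cldn5. With the epididymis mean as a covariate the median was -0.45, and with the adipocyte mean -0.23.

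Taken by kind of marrow, the difference between depots was widest with Gipr-/- marrow, with a median of 0.98 and all 10 genes higher in ingWAT. With the adipocyte mean as a covariate that median was 0.20. There, 0 of the 10 were called (0.359% of all genes called higher), 3 were higher at an unadjusted p under 0.05 (Tie1, Sox17 and Cdh5, 8.21% of all), and in 4 the depots did not overlap (Cdh5, Tek, Tie1 and Emcn, 9.23% of all). Cldn5 differed by 1.40 (SE 0.68, limma adjusted p = 0.341), Cdh5 by 1.35 (SE 0.61, adjusted p = 0.305), Sox17 by 1.25 (SE 0.54, adjusted p = 0.288) and Tie1 by 1.23 (SE 0.51, adjusted p = 0.264). With Gipr-/-S100a9-/- marrow the differences ran from -0.44 (Tie1) to 0.86 (Cdh5) with a median of 0.17, which became -1.04 with the epididymis covariate, -0.69 with the adipocyte covariate and -0.67 without the 4 epididymal arrays named above. None of the 10 was called (3.92% of all genes), none had an unadjusted p under 0.05 (21.2%), and in none did the depots fail to overlap (15.5%). With WT marrow they ran from -0.36 (Sox17) to 0.60 (Cldn5) with a median of 0.13, which became -0.60 with the epididymis covariate, and the same 3 counts were 0, against 1.97%, 16.6% and 11.7% of all genes.

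**Figure D4:**
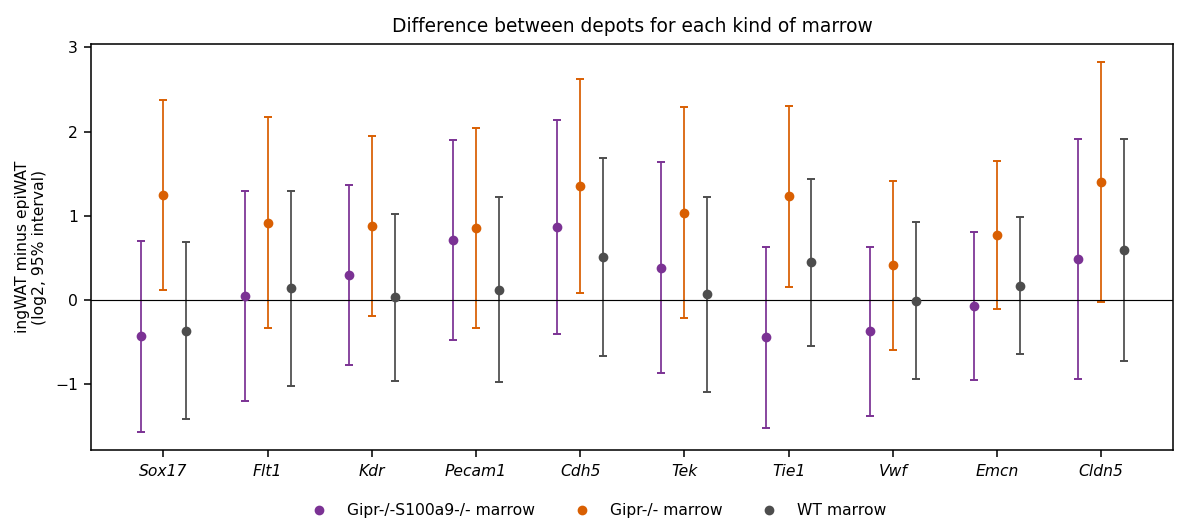
Difference ingWAT minus epiWAT on a log2 axis for each endothelial gene and each kind of marrow, with 95% intervals. The points with Gipr-/- marrow lie above 0 for all 10 genes, and the intervals of Sox17, Cdh5 and Tie1 with that marrow leave 0 out.

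Whether a marrow difference itself depended on the depot was tested as an interaction in the fit of all 22 arrays. The difference between Gipr-/- and WT marrow was higher in ingWAT than in epiWAT for all 10 genes (54.8% of all genes), by 0.42 (Vwf) to 1.61 (Sox17, SE 0.74, interval 0.07 to 3.16, unadjusted p = 0.0419, limma adjusted p = 0.606). None of the 10 was called, as was no gene of the table in that direction (0%), and 1 had an unadjusted p under 0.05 (5.16% of all). The difference between Gipr-/-S100a9-/- and Gipr-/- marrow was lower in ingWAT than in epiWAT for all 10, by -0.14 (Pecam1) to -1.68 (Sox17, SE 0.77, limma adjusted p = 0.337, and Tie1, SE 0.73, limma adjusted p = 0.309). Again 0 were called (0.372% of all genes), and 2 had an unadjusted p under 0.05 (7.67% of all). Tie1 passed in 3 alternatives: without the 4 epididymal arrays named above (-2.49, limma adjusted p = 0.0133), with the epididymis mean as a covariate (-2.48, adjusted p = 0.0172) and with the adipocyte mean as a covariate (-1.76, adjusted p = 0.0422). Calls over all genes, in either direction, also rose in these fits, from 104 to 288, 644 and 435 in the same order. The values of Tie1 in epiWAT were 7.77, 10.50, 8.84 and 10.29 with Gipr-/-S100a9-/- marrow and 7.73, 8.60, 8.34 and 8.95 with Gipr-/- marrow. The alternative without the 4 arrays keeps replicates 2 and 4 of Gipr-/-S100a9-/- marrow, the higher of its 4. With any one array left out the difference of Tie1 lay between -2.20 and -1.26.

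Among the other genes of the endothelial programme, few passed between kinds of marrow. Those that did were lower with Gipr-/-S100a9-/- than with Gipr-/- marrow in inguinal fat, where 2.65% of all genes were called lower. In that comparison replicates 1 and 3 with Gipr-/-S100a9-/- marrow are the arrays with high lymph node genes. The fit without them leaves 1 array in that group, so it cannot show their part in these calls. Of the 11 VEGF and angiopoietin ligands and co-receptors, 8 were lower and 3 higher, and 1 was called lower. That 1 was Vegfd, a ligand of VEGF receptors that also acts on lymphatics, which averaged 8.58 and 9.82 (difference -1.24, SE 0.27, limma adjusted p = 0.0328). Of the 7 haemostasis genes, 1 was called lower: F8, coagulation factor VIII, averaged 7.49 and 8.79 (difference -1.30, SE 0.32, limma adjusted p = 0.0466). Of the 11 mural cell genes, 1 was called lower: Acta2, smooth muscle actin, averaged 13.97 and 15.26 (difference -1.30, SE 0.29, limma adjusted p = 0.0355). None passed among the 23 pan-endothelial surface and junction genes (18 lower and 5 higher, median -0.23), the 15 transcription factors, the 12 capillary lipid handling genes, the 13 arterial and Notch genes, the 8 venous and adhesion genes or the 10 hypoxia response genes. The smallest p in those lists belonged to Ets2, an ETS factor (-0.98, limma adjusted p = 0.0662), and Adgrf5, an adhesion receptor (-0.89, adjusted p = 0.0686). Among the 7 lymphatic genes Ccl21a, a chemokine of lymphatics and lymph node stroma, had the smallest p, at 12.43 and 6.69 (difference 5.73, limma adjusted p = 0.0525), in the group with the high lymph node arrays.

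Between Gipr-/- and WT marrow in inguinal fat no gene of these lists passed. Of the 23 pan-endothelial genes 16 were higher and 7 lower (median 0.23), and of the 12 capillary lipid handling genes 9 were higher and 3 lower (median 0.54). Lyve1, a hyaluronan receptor of lymphatics and some macrophages, averaged 11.31 and 9.23 (difference 2.07, SE 0.45, limma adjusted p = 0.0634). S1pr1, a sphingosine phosphate receptor of endothelium, averaged 12.87 and 11.68 (difference 1.19, SE 0.30, limma adjusted p = 0.0989). Prcp, a peptidase of the kallikrein and angiotensin pathways, differed by 1.13 (adjusted p = 0.0822), Sox18, the partner of Sox17 in the same SOX group, by 1.39 (adjusted p = 0.145), and Cav1, the caveola protein, by 0.71 (adjusted p = 0.172) in limma. In epididymal fat 0 genes of the lists passed in any marrow comparison; between Gipr-/- and WT marrow 18 of the 23 pan-endothelial genes were lower (median -0.36), and Vegfa, the main VEGF, averaged 12.22 and 13.62 (difference -1.40, SE 0.32, limma adjusted p = 0.353).

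Between the depots, with the 3 kinds of marrow weighted equally, several genes around the 10 did pass, against 5.4% of all genes called higher in ingWAT and 7.55% called lower. Angpt1, the ligand that activates TIE2, was higher in ingWAT at 9.13 against 7.28 in epiWAT (difference 1.85, SE 0.28, limma adjusted p = 0.000424), while Vegfd was lower at 9.35 against 11.26 (difference -1.91, SE 0.29, adjusted p = 0.000435). Angpt4 was lower (difference -1.02, adjusted p = 0.0381). Of the 12 capillary lipid handling genes 3 were higher: Meox2, a capillary transcription factor (1.26, adjusted p = 0.0105), Gpihbp1, which carries lipoprotein lipase to the capillary lumen (0.98, adjusted p = 0.0442), and Btnl9 (1.22, adjusted p = 0.0459). Of the 23 pan-endothelial genes 2 were higher, S1pr1 (1.12) and Ecscr (0.82), and of the 15 transcription factors 1 was, Sox7 (0.61), a member of the SOX group of Sox17. Procr, the endothelial protein C receptor, was higher by 1.45 (adjusted p = 0.00551), Jag2, a Notch ligand, by 0.67 (adjusted p = 0.0112) and Bnip3, a hypoxia response gene of mitochondria, by 0.60 (adjusted p = 0.0299). Efnb2, an arterial ephrin, was lower (difference -0.67, adjusted p = 0.0351).

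Of the 7 lymphatic genes tested, 4 were called lower in ingWAT in limma, against 7.55% of all genes, and 1 was called higher, against 5.4%. The 4 were Pdpn, a surface glycoprotein that mesothelium also carries, at 7.79 against 9.66 in epiWAT (difference -1.88, adjusted p = 4.66e-05), Lyve1 (-1.53, adjusted p = 0.00681), Ccl21a (-3.36, adjusted p = 0.0106) and Prox1, the lymphatic master factor (-1.27, adjusted p = 0.0219). Tbx1, named after its values were seen, was higher (1.62, adjusted p = 0.0281), and 0 of the 8 venous and adhesion genes passed. The mesothelium list was lower for 8 of its 8 tested genes, 7 of them past the threshold. Mural cell genes were split, with 3 of 11 called higher, among them Cspg4, a pericyte proteoglycan (1.01, adjusted p = 0.0113). Another 4 were called lower, among them the smooth muscle genes Acta2 (-1.95, adjusted p = 0.00495), Cnn1 (-4.82, adjusted p = 0.00908) and Tagln (-2.37, adjusted p = 0.0262). The part of mesothelium and muscle in these depot differences was not tested. With the epididymis mean as a covariate, the calls over all genes fell from 1878 to 617. Whether the list genes named here kept their calls in that fit was not examined. Not one list gene of endothelial, lymphatic or mural kind was called for a dependence of a marrow difference on the depot.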

How the data were processed

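The authors deposited 1 table of log2 values, made from 1-colour Affymetrix whole-transcript arrays of 22 fat samples. Neither the base of the logarithm nor the normalization is stated in the labels or the table, and the values were read as log2 ones. Per the submitters' processing notes Partek 6.6 was among the tools, with no role given. Per the labels' protocols, biotin-labelled targets came from 100 ng of total RNA. The table holds 21793 features, of which 19341 carry 1 gene symbol and 2452 are unnamed here; for 4 genes with more than 1 feature the brightest was kept. Array data carry no read depth, so the number of arrays limits the precision.

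Groups came from the labels. Replicate numbers follow accession order and pair nothing. The sample titles also carry running codes, whose meaning is not stated. In ingWAT the codes of replicate 4 with WT marrow and replicates 1 and 2 with Gipr-/- marrow lie apart from all others. Whether these arrays were handled apart is not stated, and the part of this in the inguinal differences was not tested. Whether every array came from its own mouse is not stated, and p-values then reflect only the spread among these arrays, which may be technical. The 2 depots were fitted separately with limma 3.58.1 (lmFit, eBayes with an intensity trend, R 4.3.3), and both depots together for contrasts between them. Genes in the lowest 25% by mean were left out. Tests were two-sided, adjusted by Benjamini-Hochberg over 14502 genes, with a threshold of 0.05; adjusted p-values are limma's. The fit was tested on simulated data.

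The members and lists were chosen with earlier results of these data known. The 10 genes are named throughout; of each list, up to 4 genes past the threshold with the smallest p, or else the 1 with the smallest p or none. For likeness, the 10 genes with the highest correlation are named. Promoter sequences and gene spans are RefSeq's for GRCm38.p6. Alternatives were other filters, scalings, array weights, no trend, another array set, covariates, and arrays left out in turn; those that leave out arrays by lymph node, epididymis or testis genes, and the muscle covariate, were chosen after seeing the data.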

Additional observations from a re-analysis of the deposited data

How the results depend on the processing

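No paired analysis was possible because replicate numbers follow accession order and the labels tie no array of one group to an array of another. Of 3248 values of the 10 genes under alternatives, 2977 kept their sign and side of the threshold, 15 lost a call, 14 gained one and 32 reversed. Only 1 result was called as reported, Sox17 between Gipr-/-S100a9-/- and Gipr-/- marrow in ingWAT, and all 15 lost calls were of it. Most other values kept their side by staying uncalled, so the 2977 do not measure how firm that call is. Another 210 changed sign where the difference as reported was under its own standard error, 107 of them with 1 array left out.

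The call of Sox17 between Gipr-/-S100a9-/- and Gipr-/- marrow in ingWAT (adjusted p = 0.0464 in limma, 1 of the 10 genes) held under quantile scaling (0.0444) and median centring (0.0366). These fits, and the array weights below, kept the filter on low values. Sox17 passed that filter as reported only through its high group, so they do not test the call apart from the filter. The call was lost, leaving 0 genes, with no filter (0.0528), another array set (0.0566), no trend (0.0524), an epididymis covariate (0.0595), an adipocyte covariate (0.0737) and a muscle covariate (0.0529). Without the lymph node arrays, which left 1 array with Gipr-/-S100a9-/- marrow, the difference was -1.72. With a 50% filter Sox17 was not tested and Flt1 was called (-1.22, adjusted p = 0.0485). Array weights gave 2 calls (Sox17 -1.98, adjusted p = 0.0207; Flt1 -1.13, adjusted p = 0.0305), and also 2 between Gipr-/- and WT marrow (Sox17 2.10, adjusted p = 0.0364; Flt1 1.34, adjusted p = 0.0338), where Sox17 also passed without replicate 2 of Gipr-/-S100a9-/- marrow (adjusted p = 0.0418), giving 0 to 1 calls as arrays were left out in turn. In epiWAT the adipocyte covariate gave 1 call between Gipr-/- and WT marrow (Flt1) and reversed Kdr (0.0505), Tie1 (0.0349) and Emcn (0.14).

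Between depots, Tie1 was called (1 gene) with Gipr-/-S100a9-/- marrow under an epididymis covariate (-1.81), an adipocyte covariate (-1.32) and without the epididymis or testis arrays (-1.49); in these fits Pecam1 reversed to -0.93, -0.40 and -0.47 and Cdh5 to -0.90, -0.31 and -0.22. With Gipr-/- marrow the adipocyte covariate reversed Flt1 (-0.0523) and Pecam1 (-0.15). Over the 3 kinds of marrow, Cdh5 passed under quantile scaling (1.04, adjusted p = 0.0478, 1 gene) and without replicate 4 of Gipr-/-S100a9-/- marrow in epiWAT (adjusted p = 0.0412; 0 to 1 calls as arrays were left out). An epididymis covariate reversed Flt1 (-0.81), Kdr (-0.49), Pecam1 (-0.53), Cdh5 (-0.26), Tek (-0.36), Tie1 (-0.50), Emcn (-0.34) and Cldn5 (-0.34). An adipocyte covariate reversed Flt1 (-0.41), Kdr (-0.26), Pecam1 (-0.24), Tek (-0.19), Tie1 (-0.22), Emcn (-0.16) and Cldn5 (-0.0198). Leaving out the epididymis or testis arrays reversed Flt1 (-0.26), Kdr (-0.12), Pecam1 (-0.0483), Tek (-0.0490), Tie1 (-0.11) and Emcn (-0.12). The cause was not tested.

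Counts over all genes moved more. In epiWAT, between Gipr-/- and WT marrow the 0 calls became 26 with array weights, 33 with an epididymis covariate and 350 with an adipocyte covariate (0 to 1 with arrays left out in turn), and between Gipr-/-S100a9-/- and Gipr-/- marrow 1 with the other array set, 12 and 316 with these covariates. In ingWAT, the 34 calls between Gipr-/- and WT marrow became 148 with a 50% filter, 9 under quantile scaling, 112 centred, 97 with the other array set, 401 with array weights, 1 with no trend, 93 and 0 with the epididymis and adipocyte covariates, 86 without the lymph node arrays and 1 with a muscle covariate (0 to 274 with arrays left out in turn). The 505 between Gipr-/-S100a9-/- and Gipr-/- marrow became 1797 with array weights, 202 with an adipocyte covariate and 0 without the lymph node arrays (49 to 1382), and the 0 between Gipr-/-S100a9-/- and WT marrow became 13, 4, 133, 555 and 18 with the 50% filter, quantile scaling, other array set, array weights and muscle covariate (0 to 620). Between depots, the 568 with Gipr-/-S100a9-/- marrow became 14 with the other array set, 1187 with array weights and 203 without the lymph node arrays (96 to 862). The 89 with Gipr-/- marrow became 57 with no filter, 5, 623 and, without epididymis or testis arrays, 190 (2 to 225). The 286 with WT marrow became 154 with the 50% filter, 132, 791 and, with an adipocyte covariate, 613 (81 to 373). The 1878 over the 3 kinds of marrow became 617 and 997 with the epididymis and adipocyte covariates (1108 to 2283). For dependence on the depot, the 0 between Gipr-/- and WT marrow became 2, 28 and 6 with the 50% filter, array weights and epididymis covariate (0 to 2). The 104 between Gipr-/-S100a9-/- and Gipr-/- marrow became 69 with no filter, 2 with the other array set, 927 with array weights, 644 and 435 with the epididymis and adipocyte covariates, 5 without the lymph node arrays and 288 without the epididymis or testis arrays (5 to 543). With 3 or 4 arrays a group, and Sox17 near the filter level, small differences could not be seen.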
